A study of Homo sapiens with 10 samples.

Results

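The chaperonin genes were described in RNA-seq libraries of HEK293FT cells, a human embryonic kidney cell line. The members were 10 genes of a table of 20246 features, of which 19301 carried a gene name: the 8 subunit genes of the cytosolic chaperonin CCT (TCP1, CCT2, CCT3, CCT4, CCT5, CCT6A, CCT7 and CCT8) and the mitochondrial pair HSPD1 and HSPE1. They were taken by name, and each had 1 row. Chaperonins are barrel-shaped machines that close around an unfolded protein and use ATP to help it fold. CCT is built of different but related subunits, each from its own gene, and is known for folding actin and tubulin. HSPD1 (HSP60) forms the barrel inside mitochondria and HSPE1 (HSP10) is its lid, and both are known as heat shock genes.

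All cells carried integrated Gaussia and Cypridina luciferase reporters and were transfected with a plasmid for dCas9-VP64, a Cas9 that does not cut DNA, fused to a transcriptional activator. The groups were dCas9-VP64 with the guide labelled INT, with the guide labelled P4P6, with the guide labelled TOP1, with the guide labelled sgRNA, and dCas9-VP64 alone, labelled CasVP. Each of these 5 groups had 2 libraries, and each guide was directed at the Gaussia reporter. A well of 125000 plated cells received 59 ng of the dCas9-VP64 plasmid and, where a guide was given, 11.6 ng of its plasmid. In every group the well also received 679.4 ng of carrier plasmid, with 2.25 uL of Lipofectamine. RNA was taken 3 days after transfection, so the values average over cells that did and did not take up plasmid. The labels do not say how the guides differ in structure, nor whether both libraries of any group were made from different cultures; the tests therefore rest on the spread between these libraries, which may be technical. Libraries are named by group and the index 0 or 1 of their column (P4P6 replicate 0).

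Values were FPKM, fragments per kilobase of transcript scaled to library size, which allows levels of different genes to be compared per length. Depth is not given and was estimated at 19000000 to 27800000 fragments per library. At that depth counting error for a member was at most 2.90% (HSPE1). FPKM summed over named features was 540085 and 522550 in the P4P6 libraries, 596433 and 587614 in the sgRNA libraries, 570540 and 566227 in the CasVP libraries and 548895 to 598372 in the INT and TOP1 libraries. Of 10 markers of HEK293 cells 8 had a mean FPKM of at least 1, while PAX2 (0.926 FPKM) and LHX1 (0.504 FPKM) were below it. Of the markers of other cell types, the blood cell genes PTPRC and CD3E were near 0 and the liver gene ALB was at 0.129 FPKM, while the epithelial gene EPCAM (1.35 FPKM) and the collagen gene COL1A1 (1.43 FPKM) were above the 2 low HEK293 markers. In bulk RNA, fewer cells with a transcript and less of it per cell cannot be told apart.

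All CCT subunit genes were expressed at high levels, in an order that changed little between libraries. Mean FPKM over the 10 libraries was highest for CCT3 (406 FPKM), followed by CCT7 (331 FPKM), CCT8 (238 FPKM), CCT2 (229.7 FPKM), CCT4 (197 FPKM), TCP1 (167 FPKM), CCT6A (152 FPKM) and CCT5 (149.6 FPKM). CCT3 exceeded CCT7, CCT7 exceeded CCT8, CCT2 exceeded CCT4, CCT4 exceeded TCP1 and TCP1 exceeded CCT6A in 10 of 10 libraries. Only 2 neighbouring pairs crossed: CCT8 exceeded CCT2 in 8 of 10 libraries, and CCT6A exceeded CCT5 in 6 of 10. The highest library exceeded the lowest by a factor of 1.12 for TCP1 to 1.29 for CCT6A. Over all tested features the median of that factor was 1.24, and over the 310 features whose mean lay between those of CCT5 and CCT3 it was 1.21.

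**Figure D1:**
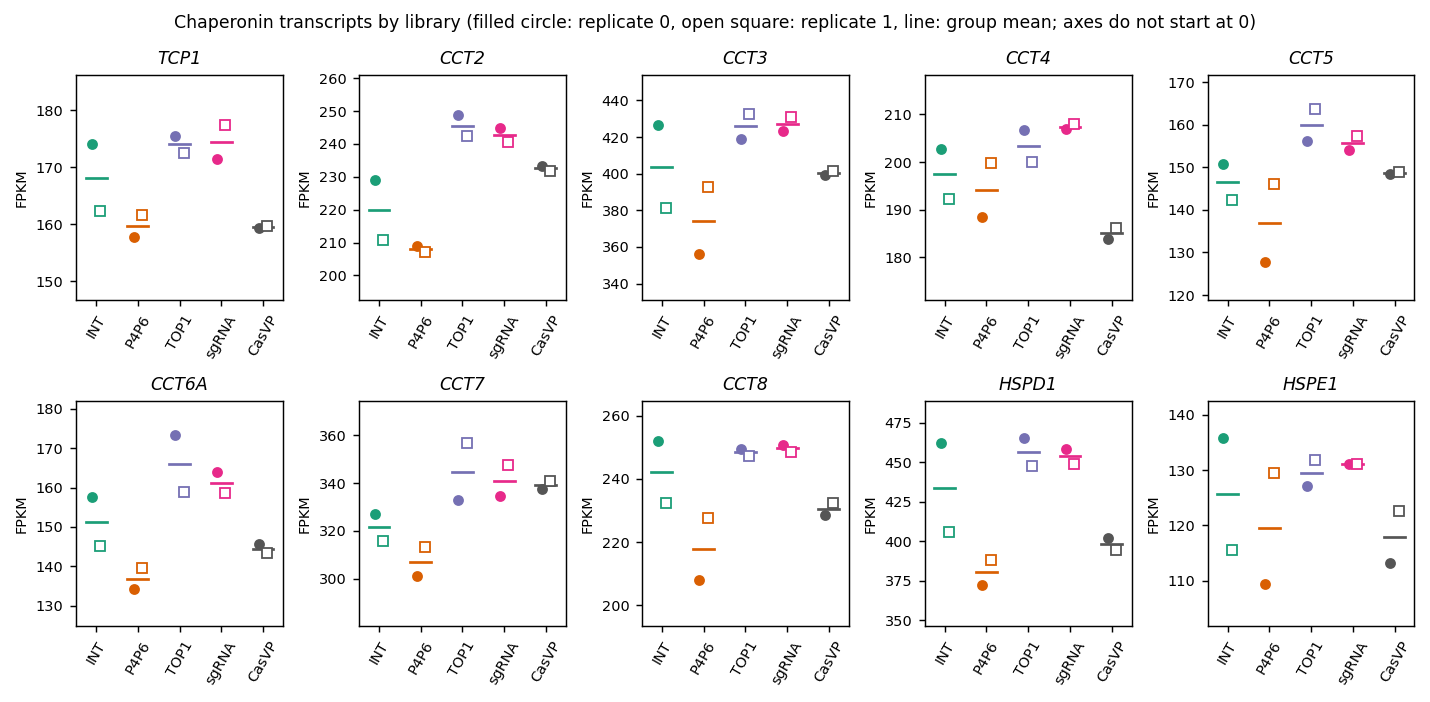
FPKM of each chaperonin gene (vertical axis, not starting at 0) in the INT, P4P6, TOP1, sgRNA and CasVP groups (horizontal axis); points are libraries and the line is the mean of 2. The P4P6 mean was the lowest of 5 for 7 genes and the CasVP mean for CCT4, HSPE1 and TCP1, while TOP1 or sgRNA had the highest mean for each of the 10.

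CCT2, the beta subunit, lies at chr12:69585459-69601570 (RefSeq, GRCh38.p14, a later build than that of the deposited values). It had 229 and 211 FPKM in the INT libraries, 209 and 207 FPKM in the P4P6 libraries, 249 and 242 FPKM in the TOP1 libraries, 245 and 240.5 FPKM in the sgRNA libraries and 233 and 232 FPKM in the CasVP libraries. Both P4P6 libraries were below the other 8. CCT6A, a zeta subunit (chr7:56051765-56063989), had 158 and 145 FPKM in the INT libraries, 134 and 139.5 FPKM in the P4P6 libraries, 173 and 159 FPKM in the TOP1 libraries, 164 and 159 FPKM in the sgRNA libraries and 146 and 143 FPKM in the CasVP libraries. Its 2 lowest libraries were again those of P4P6. CCT8, the theta subunit (chr21:29056326-29073648), had 252 and 232 FPKM in the INT libraries, 208 and 228 FPKM in the P4P6 libraries, 249 and 247 FPKM in the TOP1 libraries, 251 and 249 FPKM in the sgRNA libraries and 229 and 232 FPKM in the CasVP libraries. P4P6 was lowest here too, but its replicate 1 lay within 1 FPKM of CasVP replicate 0.

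In CCT4 it was the CasVP libraries, not those of P4P6, that were lowest. CCT4, the delta subunit (chr2:61868085-61888671), had 203 and 192 FPKM in the INT libraries, 188 and 199.8 FPKM in the P4P6 libraries, 207 and 200.1 FPKM in the TOP1 libraries, 207 and 208 FPKM in the sgRNA libraries and 184 and 186 FPKM in the CasVP libraries. It was the one member whose CasVP libraries were both below all 8 guide libraries. CCT7, the eta subunit (chr2:73234308-73253005), had 327 and 316 FPKM in the INT libraries, 301 and 313 FPKM in the P4P6 libraries, 333 and 357 FPKM in the TOP1 libraries, 335 and 348 FPKM in the sgRNA libraries and 337 and 341 FPKM in the CasVP libraries. Its P4P6 libraries were the lowest 2, and its CasVP values lay inside the range of the TOP1 and of the sgRNA libraries. The other CCT members spanned 356 to 433 FPKM (CCT3, gamma, chr1:156308968-156338292), 128 to 164 FPKM (CCT5, epsilon, chr5:10249921-10266412) and 158 to 177 FPKM (TCP1, alpha, chr6:159778498-159789602), each with its lowest value in P4P6 replicate 0.

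Reads may not be unique to a member. In RefSeq TCP1 shares 615 bases with ACAT2, CCT4 shares 281 bases with COMMD1, CCT3 shares 979 bases with TSACC, and all 3071 bases of HSPE1 lie within the read-through gene HSPE1-MOB4. The library kit does not mark strand, and how reads shared with such genes or with processed pseudogenes of members were counted is not given in the sources used here.

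The proportions of the CCT subunit transcripts varied less than their levels. Of FPKM summed over the 8 genes, CCT3 made up 21.7% on average, CCT7 17.7%, CCT8 12.7%, CCT2 12.3%, CCT4 10.6%, TCP1 8.94%, CCT6A 8.12% and CCT5 7.99%, against 12.5% for equal parts. Across libraries the coefficient of variation of a share was 1.47% (CCT3) to 3.92% (CCT4), against 4.59% (TCP1) to 8.08% (CCT6A) for the levels. A ratio within a library does not depend on a scale factor between libraries. Dividing by the sum of the same 8 genes also removes variation that they share. Shares that vary less than levels therefore follow wherever genes vary together, and shares within other sets of genes were not computed. The share of CCT4 was 11.2% in both P4P6 libraries, 10.6% and 10.8% in INT, 10.5% and 10.1% in TOP1, 10.6% in both sgRNA libraries and 10.0% and 10.1% in CasVP. The share of CCT7 was 18.4% and 18.5% in CasVP and 17.0 to 18.1% in the guide libraries. These shares were chosen for description after their values were seen and carry no test.

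**Figure D2:**
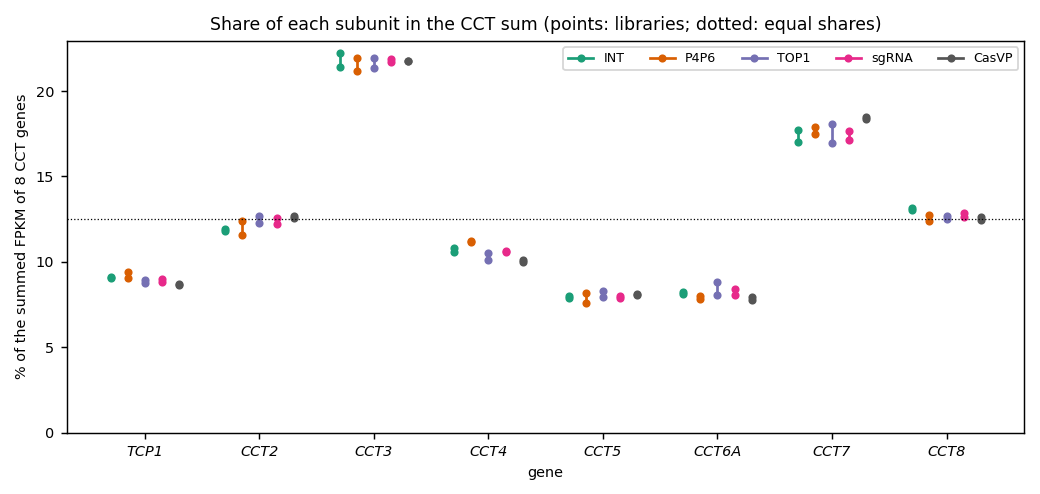
Share of each subunit in FPKM summed over the 8 CCT genes (vertical axis, percent) for each gene (horizontal axis); points are libraries, colours are groups, a line joins the 2 libraries of a group, and the dotted line marks 12.5%. CCT4 ran from 10.0% in a CasVP library to 11.2% in P4P6, and CCT7 was highest, 18.5%, in a CasVP library.

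HSPD1 (chr2:197486584-197500274) was the member with the highest mean, 425 FPKM, and HSPE1 (chr2:197500379-197503449) had the lowest, 125 FPKM. HSPD1 had 462 and 406 FPKM in the INT libraries, 372 and 388 FPKM in the P4P6 libraries, 466 and 447 FPKM in the TOP1 libraries, 458 and 449 FPKM in the sgRNA libraries and 402 and 394 FPKM in the CasVP libraries. Both P4P6 libraries were below both CasVP libraries, and the TOP1 and sgRNA values overlapped. HSPE1 had 136 and 116 FPKM in the INT libraries, 109 and 129 FPKM in the P4P6 libraries, 127 and 132 FPKM in the TOP1 libraries, 131 FPKM in both sgRNA libraries and 113 and 123 FPKM in the CasVP libraries. The gap between its INT libraries, and that between its P4P6 libraries, was wider than the gap between its highest and lowest group means. HSPD1 exceeded HSPE1 by a factor of 3.0 (P4P6 replicate 1) to 3.66 (TOP1 replicate 0).

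HSPD1 and HSPE1 lie head to head, and the stretch between their annotated starts is shown because both genes can be read from it. RefSeq (GRCh38.p14) places 104 bases there, at chr2:197500275-197500378, printed on the strand of HSPE1 with the motif CACGTG, the E-box of basic helix-loop-helix factors, in capitals. The second line is the HSPD1 strand of chr2:197500061-197500090, 189 bases into HSPD1 from its first start. Its capitals mark a run of heat shock element units, the site letters of heat shock factors.
HSPD1 to HSPE1: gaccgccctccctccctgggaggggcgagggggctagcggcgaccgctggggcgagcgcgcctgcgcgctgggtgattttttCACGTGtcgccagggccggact
HSPD1 heat shock units: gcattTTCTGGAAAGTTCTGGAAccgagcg
Promoter windows of 300 bases (250 before and 50 after a start) were held for 9 of 10 members, CCT6A being the one without. These 9 members had 12 windows, so a count of members is not on the same unit as a share of windows. CACGTG, which reads the same on both strands, was in windows of HSPD1 and HSPE1 and in 7.26% of all 35116 windows. Alternating units GAANNTTC or TTCNNGAA, which cover both strands, were in windows of CCT2, CCT4, HSPD1 and TCP1 and in 13.5% of all. Runs of 3 such units (GAANNTTCNNGAA or TTCNNGAANNTTC, each of which also holds the shorter motif) were in a window of HSPD1 among the members and in 0.490% of all. Letters that match a motif describe the sequence and do not show that a factor binds.

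Other motifs were also counted in the windows of the members. The core of ETS factor sites, CGGAAG or CTTCCG on the other strand, was in windows of CCT2, CCT5, CCT7, CCT8, HSPE1 and TCP1 (6 of 9 members). That was 7 of 12 member windows, beside 19.5% of all windows. The CCAAT box (CCAAT, or ATTGG on the other strand) was in windows of CCT2, CCT3, CCT8 and TCP1 (4 of 9 members). That was 4 of 12 member windows, near the share of 34.6% among all windows. The 120 bases before the start are printed for CCT2, CCT7 and CCT8, each on its gene's strand with these motifs in capitals. All 10 members, these included, had lower levels with P4P6 than with sgRNA. CCT7 was the one member whose TOP1 and whose sgRNA libraries overlapped CasVP. The 8 CCT genes lie on 7 chromosomes, with CCT4 and CCT7 both on chromosome 2.
CCT2 (chr12:69585339-69585458, plus strand): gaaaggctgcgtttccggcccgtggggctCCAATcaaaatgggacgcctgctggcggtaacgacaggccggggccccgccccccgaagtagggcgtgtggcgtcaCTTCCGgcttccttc
CCT7 (chr2:73234188-73234307, plus strand): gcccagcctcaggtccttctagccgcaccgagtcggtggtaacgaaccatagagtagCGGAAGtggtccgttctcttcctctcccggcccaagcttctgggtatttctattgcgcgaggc
CCT8 (chr21:29073649-29073768, minus strand): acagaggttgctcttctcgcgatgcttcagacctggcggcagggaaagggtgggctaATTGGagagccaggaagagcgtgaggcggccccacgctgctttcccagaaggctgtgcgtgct

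Comparing P4P6 with sgRNA asks what differs between cells given these guides. On the authors' scaling the group means of HSPD1, CCT6A, CCT2 and CCT8 fell by 12.8 to 16.1% with P4P6, and they stayed below 0 under each rescaling tried. HSPD1 averaged 380.4 ± 11.3 FPKM with P4P6 and 454 ± 6.40 FPKM with sgRNA (SD, n = 2 each), a fitted log2 difference of -0.25 (SE 0.06, limma adjusted p = 0.0318). CCT6A averaged 137 ± 3.81 FPKM with P4P6 and 161 ± 3.77 FPKM with sgRNA, a log2 difference of -0.24 (SE 0.06, limma adjusted p = 0.0321). CCT2 averaged 208 ± 1.24 FPKM with P4P6 and 243 ± 3.02 FPKM with sgRNA, a log2 difference of -0.22 (SE 0.05, limma adjusted p = 0.0251). CCT8, whose P4P6 libraries differed more, averaged 218 ± 14.0 FPKM with P4P6 and 249.7 ± 1.53 FPKM with sgRNA, a log2 difference of -0.20 (SE 0.05, limma adjusted p = 0.0457). These 4 of 10 members stand beside 11.5% of all tested features that passed in either direction (1331 of 11574).

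The other 6 members did not pass. Their log2 differences were -0.15 for CCT7 (limma adjusted p = 0.0726), -0.19 for CCT3 (0.0737), -0.19 for CCT5 (0.0765), -0.13 for TCP1 (0.0964), -0.10 for CCT4 (0.195) and -0.14 for HSPE1 (0.321). The 2 P4P6 libraries were below the 2 sgRNA libraries for 10 of 10 members, against 30.6% of all features, and 8 members had an unadjusted p under 0.05, against 30.3% of all. The median log2 difference was -0.19 over the 8 CCT genes and -0.01 over all tested features. FPKM summed over the 310 features at CCT levels was also lower with P4P6, 67992 and 67424 against 76251 and 75600 with sgRNA. The sum of the CCT genes was 1682 and 1788 FPKM with P4P6 against 1950 and 1969 FPKM with sgRNA. Whether the CCT genes fell more than other features at their levels was not tested. Shares of calls and of non-overlap among those 310 features were not counted, here or against CasVP.

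The calls depended on which libraries entered the fit, including those of CasVP, which is not compared here, and on the spread borrowed from other groups. Members still passed when an INT or a TOP1 library was left out. Without P4P6 replicate 1, sgRNA replicate 0, sgRNA replicate 1, CasVP replicate 0 or CasVP replicate 1, left out in turn, 0 members passed, and between 1 and 3 features did. Without P4P6 replicate 0 only CCT2 passed, while 2045 features did. A fit on the P4P6 and sgRNA libraries alone left 0 members and 2 features.

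The size of these differences also depended on how libraries were scaled. P4P6 libraries had less summed FPKM than sgRNA libraries, as given above, and the CCT genes made up 0.311% and 0.342% of that sum in P4P6 libraries and 0.327% and 0.335% in sgRNA libraries, so the shares overlapped. After quantile normalization the members' log2 differences ran from -0.09 to 0.06, 7 of 10 were below 0, and 0 passed (lowest limma adjusted p = 0.349, with 388 features called). HSPD1, CCT6A, CCT2 and CCT8 stayed below 0. After rescaling to equal summed FPKM, chosen after seeing the data, they ran from -0.10 to 0.06, 6 were below 0, and 0 passed (lowest limma adjusted p = 0.190), but that rescaling moved the median of all features from -0.01 to 0.13. Relative to that median the members lay at -0.23 to -0.07. After median-of-ratios rescaling 3 members passed and all 10 were below 0, from -0.25 to -0.09.

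**Figure D3:**
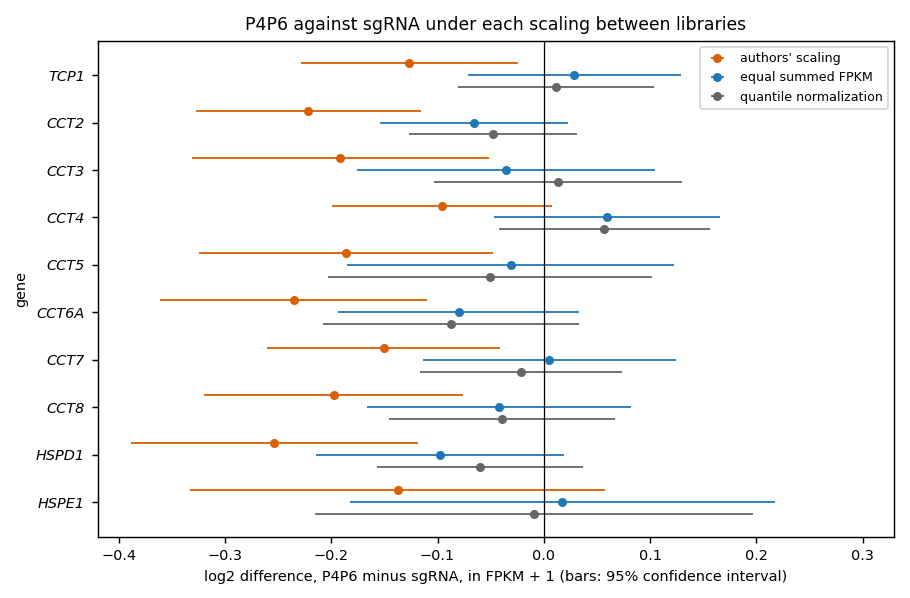
Log2 difference of each chaperonin gene, P4P6 minus sgRNA (horizontal axis, in FPKM + 1), with its 95% confidence interval from limma, under the authors' scaling, equal summed FPKM and quantile normalization. All 10 points lie below 0 on the authors' scaling, 6 with equal summed FPKM and 7 after quantile normalization.

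**Figure D4:**
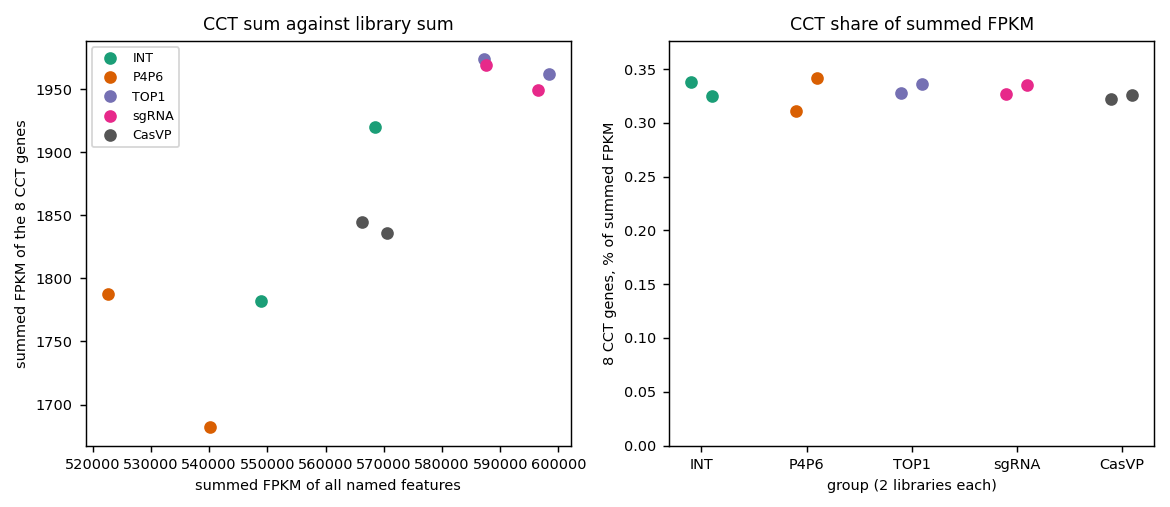
Left, FPKM summed over the 8 CCT genes (vertical axis) against FPKM summed over all named features (horizontal axis), neither axis starting at 0; right, the CCT share of that sum (percent) by group. Each point is 1 library and colours are groups. The P4P6 libraries have the lowest sums, 540085 and 522550 FPKM, while their CCT shares, 0.311% and 0.342%, lie on both sides of the sgRNA libraries.

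Comparing a guide with CasVP asks what adding that guide to dCas9-VP64 changed. No member passed in any of these comparisons in limma. With sgRNA, 9 of 10 members were higher than in both CasVP libraries, CCT7 being the exception, against 24.0% of all features. The largest log2 differences were 0.19 for HSPD1 (SE 0.06), 0.16 for CCT4 (SE 0.05) and 0.16 for CCT6A (SE 0.06), each with a limma adjusted p = 0.791. Unadjusted p was under 0.05 for 4 members, against 6.02% of all features, of which 0.0173% passed after adjustment. With TOP1 the same 9 members did not overlap CasVP and were higher, against 24.7% of all features. Its log2 differences reached 0.20 for CCT6A (SE 0.06) and 0.20 for HSPD1 (SE 0.06), each with a limma adjusted p = 0.501. There 4 members had an unadjusted p under 0.05, against 9.22%, and 0.00864% of features passed. The median over the CCT genes was 0.10 with sgRNA and 0.11 with TOP1. These comparisons share the CasVP libraries. FPKM summed over the 310 features at CCT levels was higher too: 76251 and 75600 with sgRNA, 76340 and 75549 with TOP1, and 71874 and 71892.5 with CasVP. After quantile normalization CCT2 and CCT7 were below 0 in both, and CCT7 also with equal summed FPKM.

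With INT, the members did not share a direction: 5 of 8 CCT genes had a log2 difference above 0, with a median of 0.04, from -0.08 for CCT2 to 0.09 for CCT4 (SE 0.05, limma adjusted p = 0.604). HSPD1 was at 0.12 (SE 0.06, limma adjusted p = 0.604). No member had an unadjusted p under 0.05, against 8.86% of all features, and 0.0173% passed. With P4P6, 7 members were below both CasVP libraries, against 28.1% of all features, CCT4 was above them, and HSPE1 and TCP1 overlapped. Features at CCT levels had a lower sum there as well, 67992 and 67424 FPKM with P4P6 against 71874 and 71892.5 FPKM with CasVP. CCT2 was at -0.16 (SE 0.05, limma adjusted p = 0.106) and CCT7 at -0.14 (SE 0.05, limma adjusted p = 0.140), the 2 members with an unadjusted p under 0.05, against 22.2% of all features, with 0.00864% passing. For all guides against CasVP, CCT4 was at 0.12 (SE 0.04, limma adjusted p = 0.669), and its lack of overlap between the 8 guide libraries and CasVP was shared by 2.14% of all features in that direction. The members TCP1, CCT4 and HSPD1 had an unadjusted p under 0.05 there, against 7.43%, and 0.0173% of features passed.

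INT and TOP1 were also set against sgRNA. With INT all 8 CCT genes were below 0 on the log2 scale, with a median of -0.08, but after quantile normalization CCT3, CCT4, CCT5, CCT8 and TCP1 were above it, as were all of these but CCT5 with equal summed FPKM. CCT2 differed most, by -0.14 (SE 0.05, limma adjusted p = 0.555), and was the 1 member with an unadjusted p under 0.05, against 8.77%. No member passed, and 0.00864% of features did. With TOP1, 0 members had an unadjusted p under 0.05, against 1.68%, 0 passed in limma and 0.00864% of features did. The fitted difference of CCT6A was 0.04 with a 95% interval of -0.08 to 0.17, and that of CCT2 was 0.02 with an interval of -0.09 to 0.12. On the authors' scaling these intervals hold no difference as large as the fitted P4P6 to sgRNA value of the same gene, -0.24 for CCT6A and -0.22 for CCT2. Both genes had passed in P4P6 against sgRNA, so these values may be overstated. With equal summed FPKM they were -0.08 for CCT6A and -0.07 for CCT2. TOP1 was not tested against P4P6.

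An F-test over all 5 groups asked whether a member varied with the group at all. It passed 0 members and 0.0259% of features. An unadjusted p under 0.05 was found for CCT2 (limma adjusted p = 0.0663), CCT6A (0.0721), HSPD1 (0.0798), CCT8 (0.144), CCT7 (0.168), CCT5 (0.181), TCP1 (0.188) and CCT4 (0.191), against 24.0% of all features. CCT3 (0.239) and HSPE1 (0.584) had the largest p.

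Levels of the CCT subunits varied together between libraries on the authors' scaling. Over the 10 libraries the median Pearson r of log2 values was 0.816 for the 28 pairs of CCT genes, from 0.273 (CCT4 with CCT7) to 0.953 (CCT3 with CCT5), with all 28 above 0. Libraries of a pair share their scaling, depth and group, so these r describe the libraries and carry no test. The median was 0.00096 over all feature pairs, but 0.567 (interquartile range 0.152 to 0.792) over pairs of the 310 features at CCT levels, of which 21.6% reached the CCT median. Features at these levels varied together whether or not they belong to CCT. The mean of the CCT genes had r = 0.864 with log2 summed FPKM of the library, CCT2 alone 0.971 and CCT4 0.484. Without the P4P6 libraries the CCT median was 0.732.

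Over all 10 libraries the median r of CCT pairs was smaller after rescaling, and so was that of features at CCT levels. After quantile normalization the CCT median was 0.360, 21 of 28 pairs were above 0, and CCT2 and CCT4 ran against each other (r = -0.67), while features at CCT levels had a median of 0.012. With equal summed FPKM the CCT median was 0.430 and that of features at CCT levels 0.038. The median over all feature pairs was then 0.249, and 35.8% of all pairs reached the CCT median. The r of CCT3 with CCT5 was 0.791 after quantile normalization and 0.897 with equal summed FPKM, while the median r of CCT7 with the other subunits was -0.04 and 0.225. Taking deviations from group means removes what follows the groups. The deviations of a group's 2 libraries mirror each other, so each such r rests on 5 replicate differences, 1 per group. The CCT median was then 0.696, from -0.24 (CCT6A with CCT7) to 0.939 (CCT4 with CCT8), against 0.146 for features at CCT levels, 0.370 among 11 genes of the 20S proteasome, 0.427 among 6 prefoldin genes and 0.656 among 26 ribosomal protein genes. Within groups the CCT median was 0.565 after quantile normalization, against -0.0014 for features at CCT levels. With equal summed FPKM the CCT median within groups was 0.722, not smaller than on the authors' scaling, against 0.044 for features at CCT levels.

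**Figure D5:**
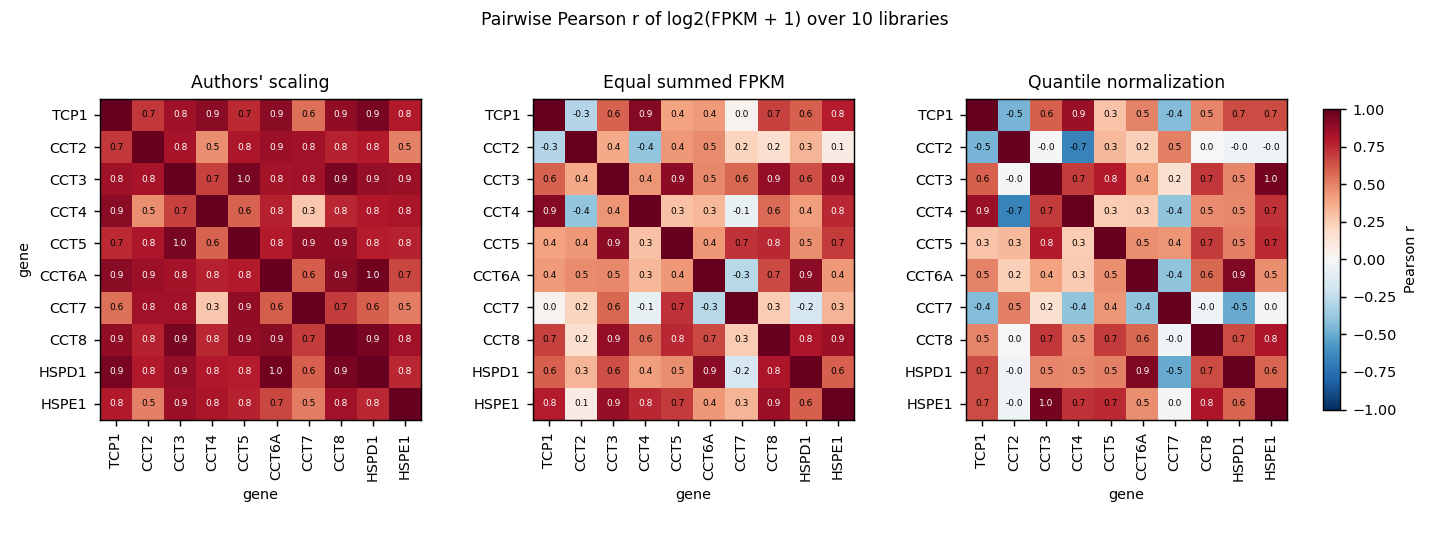
Pearson r between each pair of chaperonin genes (rows and columns) over 10 libraries, coloured from -1 to 1, under the authors' scaling, equal summed FPKM and quantile normalization. Every CCT pair is above 0 on the authors' scaling (median 0.816), whereas CCT2 and CCT7 have pairs below 0 under both rescalings (medians 0.430 and 0.360).

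The INT and P4P6 libraries carried most of the variation within groups. INT replicate 1 was lower than INT replicate 0 for 10 of 10 members, while 49% of all features and 22.3% of those at CCT levels were higher in INT replicate 1. P4P6 replicate 1 was higher than P4P6 replicate 0 for 9 of 10 members, CCT2 being the exception, against 47.5% of all features and 45.8% of those at CCT levels. The sgRNA, TOP1 and CasVP pairs showed no shared direction, with 5, 4 and 7 of 10 members higher in replicate 1. HSPE1 had the largest spread within groups, with a log2 SD of 0.11, against 0.04 for TCP1.

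HSPD1 and HSPE1 had r = 0.754 with each other, 0.691 after removing group means and 0.582 after quantile normalization. On the authors' scaling the r of HSPD1 was 0.963 with CCT6A, 0.949 with CCT8 and 0.948 with TCP1. After quantile normalization these were 0.923, 0.654 and 0.656, while HSPD1 had -0.04 with CCT2 and -0.50 with CCT7. After removing group means the r of HSPD1 ran from 0.177 (CCT7) to 0.922 (CCT2). The median r with the 8 CCT genes on the authors' scaling was 0.843 for HSPD1 and 0.781 for HSPE1. Differences between such r were not tested.

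Other genes of the folding pathway were counted in P4P6 against sgRNA, beside 11.5% of all features called. Prefoldin, which hands unfolded actin and tubulin to CCT, had 6 of 6 genes lower. Log2 differences were -0.37 for PFDN4 (SE 0.06, limma adjusted p = 0.0221), -0.33 for PFDN6, -0.27 for PFDN5, -0.25 for PFDN1, -0.24 for PFDN2 and -0.17 for VBP1, with adjusted p of at most 0.0342. After quantile normalization, and likewise with equal summed FPKM, 2 of the 6 passed. Of 3 phosducin-like cofactors of CCT, PDCL3 was lower (-0.24, limma adjusted p = 0.0478). The call of PDCL3 was lost after quantile normalization and with equal summed FPKM. Of 11 tested rows of CCT clients (TUBA1C has 2) 0 passed, with a median of 0.09. An unadjusted p under 0.05 was found for 5 rows, with log2 differences of 0.20 for TUBG1, 0.19 for TUBB2A, 0.12 for CDC20, 0.11 for GNB1 and -0.16 for a TUBA1C row. Quantile normalization called 3 of the rows higher and equal summed FPKM 7.

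Of 8 tested mitochondrial chaperone genes other than the pair, 2 were lower with P4P6: HSPA9, the mitochondrial HSP70 (-0.20, limma adjusted p = 0.0402), and GRPEL1, its nucleotide exchange factor (-0.25, limma adjusted p = 0.0248). Both calls were lost after quantile normalization. Of 16 tested heat shock response genes 1 was lower, the factor HSF2 (-0.17, limma adjusted p = 0.0457), with a median of -0.04 over the list, and that call was lost after quantile normalization. Of 6 tested mitochondrial protease genes 0 passed, with a median of 0.03, and 2 had an unadjusted p under 0.05. Of 4 tested relatives of CCT, which include the testis subunit gene CCT6B (mean 2.15 FPKM), 0 passed, with a median of -0.09, and 0 had an unadjusted p under 0.05. With equal summed FPKM, which moved all features by the shift given above, the medians were 0.04 for mitochondrial chaperones, 0.11 for heat shock genes, 0.18 for proteases and 0.05 for CCT relatives, and 5 heat shock and 3 protease genes were called higher and 0 lower.

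Other large complexes were counted the same way. In P4P6 against sgRNA 7 of 11 tested genes of the 20S proteasome were lower, with a median of -0.22, and 22 of 26 ribosomal protein genes, with a median of -0.28. Both exceeded the CCT count of 3 of 8, and after quantile normalization 0 of either list passed. With equal summed FPKM 0 proteasome and 10 ribosomal protein genes did. Quantile normalization gives each rank the same value in every library, so it can hide differences shared by the highest features. The ribosomal protein genes averaged 335 (RPS23) to 5497 FPKM (RPS2), and their median log2 difference after quantile normalization was -0.0057. Lists were not tested against each other. Among HEK293 markers LIN28B was lower (-0.20, limma adjusted p = 0.0412), 1 of 8, a call lost after quantile normalization and with equal summed FPKM.

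Against CasVP no gene of these folding lists passed on the authors' scaling or after quantile normalization, while equal summed FPKM called 2 CCT client rows higher with P4P6. Among cofactors TXNDC9 was at -0.18 and PDCL3 at -0.17 with P4P6 (limma adjusted p = 0.0956 and 0.178). Among mitochondrial chaperones GRPEL1 and DNAJC19 were both at -0.16 with P4P6, and among heat shock genes HSF2 was at -0.17 with P4P6. HSP90AB1 was at 0.21 with sgRNA (SE 0.11, limma adjusted p = 0.796), but its row had a mean of only 1.38 FPKM, near the filter. PFDN6 was at -0.21 with P4P6 and PFDN4 at 0.20 with sgRNA (limma adjusted p = 0.0832 and 0.791). Of the clients, the tubulin TUBB2A was at 0.23 with P4P6 and FZR1, a cell cycle regulator, at -0.21 with TOP1. CCT6B was at -0.23 with P4P6 (SE 0.13, limma adjusted p = 0.337). That value came from P4P6 replicate 1 (1.41 FPKM), as replicate 0 had 2.35 FPKM and the CasVP libraries 2.38 and 2.27 FPKM. BBS10, a ciliary relative of CCT, was at -0.09 with P4P6, the protease LONP1 at -0.18 with TOP1 and HTRA2 at -0.10 with P4P6.

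Features whose pattern over the 10 libraries was most like that of the 8 CCT genes, among 9127 with a mean of at least 5 FPKM, were SDHC, a succinate dehydrogenase subunit (mean r 0.883), SUMO2, a ubiquitin-like modifier (0.883), RAN, a nuclear transport GTPase (0.883), ZNF277 (0.871) and IDI1, an enzyme of isoprenoid synthesis (0.870). Among those most like HSPD1 and HSPE1 were EIF4B, a translation initiation factor (0.913), VDAC1, a mitochondrial outer membrane channel (0.909), a row shared by TUBB and TUBB2C (0.909) and CALCOCO2 (0.907).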

How the data were processed

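Polyadenylated RNA of 10 HEK293FT libraries was measured. Values are FPKM as deposited by the authors. Per the submitters' processing notes, TopHat2 2.0.13, Cuffdiff 2.2.1 and hg19 were used; which tool made the values, and how libraries were scaled to each other, is not given in the sources used here. Fragments per library were estimated from the steps between low FPKM values (78.5% of 10622 whole within 0.05). Since the transcript lengths behind it are assumed, depth is approximate, with an interquartile range of 23300000 to 29700000 for CasVP replicate 0. Counting error covers sampling only.

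Values were transformed to log2(FPKM + 1), so folds of low genes are understated. The 945 unnamed features were left out, and 11574 with a mean FPKM of at least 1 were tested with limma 3.58.1 (R 4.3.3), with an intensity trend, 1 mean per group, all 10 libraries (5 residual degrees of freedom) and Benjamini-Hochberg adjustment at 0.05, two-sided. All 10 members passed the filter. The test was tried on simulated data. Correlations were computed with numpy 2.4.6. Alternatives were another pseudocount (0.1), filters, 3 rescalings, no trend, library weights, a block, the compared groups alone and each library left out.

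Members and lists were chosen with earlier results of these data known. Named were all members, per list the 2 largest differences of a guide from CasVP and any gene that passed, and 5 features most like each complex, of which 1 is not reported here; ribosomal and proteasome genes are given as counts. Replicate numbers in the labels could not be tied to the column index. Promoters, positions and overlaps are from RefSeq (GRCh38.p14).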

Additional observations from a re-analysis of the deposited data

How the results depend on the processing

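Of 1590 values, for 80 member differences under up to 20 settings, 1479 kept their direction and their side of the threshold, 47 lost and 4 gained a call, and 60 changed sign, of which 35 came from the 2 rescalings and 25 from leaving out 1 library. In P4P6 against sgRNA 4 members passed. The count was 0 after quantile normalization, 0 with equal summed FPKM and 0 with the compared groups alone, and 1 (CCT2) each with no filter, no trend and library weights. Leaving out 1 library gave 0 to 5. It was 4 with a pseudocount of 0.1 or a mean FPKM of at least 5, and 3 after median-of-ratios rescaling. Rescaling to equal summed FPKM was added after seeing the data. Replicate differences correlated between groups by -0.04 to 0.42, and 8 of 10 pairs of groups, not all, exceeded 0.1 (0.42 for P4P6 with sgRNA), so the index was not taken to pair libraries. With a replicate block on it, 5 members passed in P4P6 against sgRNA, 1 in P4P6 against CasVP (CCT2) and 3 in the F-test (CCT2, CCT6A and HSPD1), with 2326 features passing in P4P6 against sgRNA, against 1331. No member passed in the other comparisons under any alternative. The cause of these changes was not tested. The median r of CCT pairs, 0.816, was 0.360 after quantile normalization, 0.430 with equal summed FPKM, 0.739 as Spearman's rho and 0.732 without the P4P6 libraries. After quantile normalization, log2 differences with the other sign than on the authors' scaling were 0.023 for CCT5 in INT vs CasVP. In INT vs sgRNA they were 0.0070 for CCT3, 0.030 for CCT4, 0.0041 for CCT5, 0.060 for CCT8, 0.015 for HSPD1, 0.016 for HSPE1 and 0.016 for TCP1. In P4P6 vs CasVP they were 0.037 for CCT3, 0.017 for CCT6A and 0.059 for HSPD1. In P4P6 vs sgRNA they were 0.013 for CCT3, 0.057 for CCT4 and 0.011 for TCP1. In TOP1 vs CasVP they were -0.0083 for CCT2 and -0.067 for CCT7. In TOP1 vs sgRNA they were -0.0017 for CCT7. In sgRNA vs CasVP they were -0.021 for CCT2 and -0.066 for CCT7. With equal summed FPKM, log2 differences with the other sign than on the authors' scaling were 0.0039 for CCT5 in INT vs CasVP. In INT vs sgRNA they were 0.00055 for CCT3, 0.013 for CCT4, 0.038 for CCT8, 0.017 for HSPD1, 0.018 for HSPE1 and 0.030 for TCP1. In P4P6 vs CasVP they were 0.019 for CCT6A, 0.014 for CCT8 and 0.031 for HSPD1. In P4P6 vs sgRNA they were 0.059 for CCT4, 0.0051 for CCT7, 0.017 for HSPE1 and 0.029 for TCP1. In TOP1 vs CasVP they were -0.038 for CCT7. In sgRNA vs CasVP they were -0.051 for CCT7. Leaving out 1 library at a time gave both signs for differences near 0, ranging -0.072 to 0.091 for CCT3, -0.063 to 0.021 for CCT5 and -0.028 to 0.20 for HSPE1 in INT vs CasVP. In INT vs sgRNA they ranged -0.10 to 0.014 for CCT8, -0.16 to 0.027 for HSPD1 and -0.18 to 0.050 for HSPE1. In P4P6 vs CasVP they ranged -0.11 to 0.13 for HSPE1 and -0.016 to 0.020 for TCP1. In TOP1 vs CasVP they ranged -0.028 to 0.072 for CCT7. In TOP1 vs sgRNA they ranged -0.00064 to 0.036 for CCT2, -0.027 to 0.018 for CCT3, -0.022 to 0.10 for CCT6A, -0.035 to 0.065 for CCT7, -0.020 to 0.037 for HSPD1, -0.043 to 0.0078 for HSPE1 and -0.028 to 0.021 for TCP1. In all guides vs CasVP they ranged -0.017 to 0.031 for CCT5. In sgRNA vs CasVP they ranged -0.020 to 0.035 for CCT7. With 2 libraries a group, differences of the size seen here lie near what the spread between libraries can show, and depth is only estimated.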
